A study of Mus musculus with 8 samples.

Results

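Teneurins, latrophilins and FLRT proteins are cell-surface adhesion molecules that bind each other across the gap between neighbouring cells, and open chromatin was examined at 9 of their genes: Tenm2, Tenm3, Tenm4, Adgrl1, Adgrl2, Adgrl3, Flrt1, Flrt2 and Flrt3. The cells were mouse cerebellar granule neuron progenitors (GNPs), and the assay was ATAC-seq, where a transposase (Tn5) cuts and tags DNA that nucleosomes leave bare. The members were the peaks that lay in the body of these genes or within 10 kb of it on either side, by the GENCODE M21 annotation of build mm10. The WT list held 385 such peaks of 152984, the mutant list 423 of 174407 and the het list 257 of 106974, which makes 1065 of 434365 peaks in all. The genes were chosen by family and not by their values, though earlier results of these data were known.

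Teneurins are large single-pass membrane proteins that pair with teneurins of other cells and, as ligands, with latrophilins. Latrophilins, encoded by the Adgrl genes, are adhesion G-protein-coupled receptors that also bind FLRT proteins through a separate domain. FLRT proteins carry leucine-rich repeats and a fibronectin domain, and they additionally bind Unc5 receptors, by which they guide migrating neurons. In the cerebellum this system is known from the contacts of granule cells, whose parallel fibres synapse on Purkinje cells.

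The GNPs were enriched from cerebella at postnatal day 7 by a Percoll gradient, in 3 genotypes of the gene for the nucleosome remodeller Chd7. The strain is C56Bl6/J by the labels and C57BL/6N by the study's methods. All groups carried floxed Chd7: WT was [Chd7 f/f] without Cre (3 libraries), het was [Atoh1-Cre::Chd7 f/+] (2 libraries) and mutant was [Atoh1-Cre::Chd7 f/f] (3 libraries). Atoh1-Cre acts in the granule cell lineage, and by the study's account Chd7 protein remained in the posterior lobe, the sexes were pooled, and the WT and mutant replicates were technical. Each list was called on the pooled libraries of its genotype, so no value here has a replicate error, no test between genotypes was possible, and all intervals are 95% intervals that cover counting error only.

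Depth was close in the WT and mutant lists, with 50394313 and 51030229 tags after filtering, and lower in het, with 30923002. The het list was also called with another tag extension (200 bp against 90 and 88 bp), so het heights were not compared with the others. A promoter peak was present in all 3 lists for 7 of 7 granule progenitor markers (Atoh1, Barhl1, Pax6, Zic1, Zic2, Gli1 and Neurod1), at ranks between 75.3 and 94.9 in WT, where the rank is the percent of peaks in the list that were no stronger by q. Markers of other cells also had promoter peaks in WT, namely 2 of 3 for Purkinje cells, 3 of 4 for astrocytes and Bergmann glia, 3 of 3 for inhibitory interneurons, 3 of 4 for oligodendrocytes, 1 of 3 for microglia and 2 of 3 for endothelium. The mutant list gave the same counts for these types, and Pcp2, Gfap, Sox10, Cx3cr1, Aif1 and Pecam1 had no promoter peak in any list. The Purkinje markers Calb1 and Car8 ranked at 89.1 and 92.9 in WT, and the endothelial marker Kdr at 85.0, within the range of the granule progenitor markers. The oligodendrocyte marker Olig1 (80.6) and the astrocyte and Bergmann glia marker Slc1a3 (77.5) also ranked within that range. The part of other cells in the values below was not tested, and since only peak lists were used, the deletion of Chd7 itself could not be checked.

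Below are the sequences of the peaks on which the comparison turns, each as the 300 bases around the WT summit on the plus strand of GRCm38.p6, whose coordinates are those of mm10. They are the 2 deepest falls and the only rise among strong peaks whose counting interval lay on a single side of 0, and the strongest peak away from any start in each of 5 genes, all of them intronic. For Flrt3, the 250 bases before the RefSeq start are shown on the coding strand, because its promoter was the strongest of the 9 genes. Capitals mark every match, on either strand, to the 6 strings searched: the E-boxes CAGCTG and CAGATG, the nuclear factor I (NFI) string TTGGCA, the AP-1 site TGANTCA, the Zic-like string CAGCAGG and the GC box GGGCGG.
Tenm2 intron 4, largest fall, chr11:36415328-36415627: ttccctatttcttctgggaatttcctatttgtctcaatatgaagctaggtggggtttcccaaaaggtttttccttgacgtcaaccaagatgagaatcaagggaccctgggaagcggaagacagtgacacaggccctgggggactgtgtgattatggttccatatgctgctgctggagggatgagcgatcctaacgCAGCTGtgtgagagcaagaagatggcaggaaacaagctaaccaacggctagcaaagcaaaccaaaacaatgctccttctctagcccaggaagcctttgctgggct
Adgrl3 intron 11, largest fall, chr5:81661652-81661951: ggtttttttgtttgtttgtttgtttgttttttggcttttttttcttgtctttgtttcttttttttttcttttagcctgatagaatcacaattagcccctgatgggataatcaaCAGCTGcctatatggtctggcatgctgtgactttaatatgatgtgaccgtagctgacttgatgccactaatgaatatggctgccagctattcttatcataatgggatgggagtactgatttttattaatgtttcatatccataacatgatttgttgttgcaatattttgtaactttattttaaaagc
Tenm4 intron 13, largest rise, chr7:96746007-96746306: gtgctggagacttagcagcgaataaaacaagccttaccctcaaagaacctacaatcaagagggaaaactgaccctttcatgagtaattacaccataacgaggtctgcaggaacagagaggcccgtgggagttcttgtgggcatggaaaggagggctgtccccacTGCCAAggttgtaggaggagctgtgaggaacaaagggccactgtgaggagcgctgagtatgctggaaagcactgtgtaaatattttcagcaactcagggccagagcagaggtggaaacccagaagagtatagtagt
Tenm2 intron 4, strongest distal peak, chr11:36804558-36804857: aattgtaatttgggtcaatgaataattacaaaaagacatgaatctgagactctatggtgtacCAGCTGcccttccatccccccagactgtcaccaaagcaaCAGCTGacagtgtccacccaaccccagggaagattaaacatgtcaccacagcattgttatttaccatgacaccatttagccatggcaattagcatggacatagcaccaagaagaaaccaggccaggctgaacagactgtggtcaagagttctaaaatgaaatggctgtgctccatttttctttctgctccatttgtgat
Tenm3 intron 4, strongest distal peak, chr8:48376889-48377188: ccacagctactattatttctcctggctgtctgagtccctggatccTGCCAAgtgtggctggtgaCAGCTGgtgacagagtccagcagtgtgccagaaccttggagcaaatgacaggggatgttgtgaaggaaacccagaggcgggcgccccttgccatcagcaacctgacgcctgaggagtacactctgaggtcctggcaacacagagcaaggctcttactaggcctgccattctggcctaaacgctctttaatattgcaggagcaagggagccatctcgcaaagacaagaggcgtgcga
Tenm4 intron 3, strongest distal peak, chr7:96474605-96474904: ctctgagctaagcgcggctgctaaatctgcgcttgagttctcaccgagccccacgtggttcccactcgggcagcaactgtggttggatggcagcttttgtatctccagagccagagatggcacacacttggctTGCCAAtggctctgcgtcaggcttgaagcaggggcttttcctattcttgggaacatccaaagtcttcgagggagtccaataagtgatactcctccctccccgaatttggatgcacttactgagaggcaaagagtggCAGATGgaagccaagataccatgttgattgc
Adgrl2 intron 2, strongest distal peak, chr3:148935134-148935433: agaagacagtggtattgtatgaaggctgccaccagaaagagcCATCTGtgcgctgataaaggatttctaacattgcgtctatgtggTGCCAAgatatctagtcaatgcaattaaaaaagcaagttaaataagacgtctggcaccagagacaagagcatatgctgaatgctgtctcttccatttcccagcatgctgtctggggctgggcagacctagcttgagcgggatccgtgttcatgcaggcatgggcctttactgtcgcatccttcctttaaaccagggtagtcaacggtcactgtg
Adgrl3 intron 8, strongest distal peak, chr5:81610278-81610577: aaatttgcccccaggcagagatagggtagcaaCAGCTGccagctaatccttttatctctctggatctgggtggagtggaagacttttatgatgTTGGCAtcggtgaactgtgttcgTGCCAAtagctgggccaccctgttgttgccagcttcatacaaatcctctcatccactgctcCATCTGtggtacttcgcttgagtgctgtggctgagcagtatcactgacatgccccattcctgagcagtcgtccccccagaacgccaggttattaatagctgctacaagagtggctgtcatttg
Flrt3 promoter, minus strand, chr2:140671477-140671726: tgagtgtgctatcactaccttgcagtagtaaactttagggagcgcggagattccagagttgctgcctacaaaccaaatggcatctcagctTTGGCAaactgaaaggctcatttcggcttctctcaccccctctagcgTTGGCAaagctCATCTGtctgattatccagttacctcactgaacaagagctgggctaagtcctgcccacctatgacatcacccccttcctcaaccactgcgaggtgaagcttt

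Of the 9 sequences, all held at least 1 match, and each match was to an E-box or to the NFI string. CAGCTG stood at position 196 of the Tenm2 fall and at position 114 of the Adgrl3 fall, counted from the first printed base. The window of the strongest Tenm2 peak held the same E-box at positions 63 and 102. In Adgrl3 the strongest window held 4 matches, with CAGCTG at 33, the NFI string at 94 and 117, and CAGATG, on the minus strand, at 178. The Flrt3 promoter held the NFI string at positions 91 and 138 and CAGATG, again on the minus strand, at 149. Of all 32851 promoters of the RefSeq table, cut to the same 250 bases, 12.3% held the NFI string and 14.4% held CAGATG. A match is a string of letters and not evidence of a bound factor.

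The 9 genes differed widely in how much open chromatin they held. In WT, the large genes Tenm2 (1229 kb), Tenm4 (740 kb), Tenm3 (616 kb) and Adgrl3 (805 kb) held 108, 90, 66 and 63 peaks. Adgrl2 (175 kb) held 29 and Flrt2 (93.0 kb) held 16, while Flrt1 held 7 and Adgrl1 and Flrt3 held 3 each. Per 100 kb, including the flanks, the 9 genes held 9.84 WT peaks. The median over 705 other protein-coding genes of at least 200 kb with at least 20 WT peaks was 8.34, and Tenm2 held 8.64 and Tenm3 10.4. Adgrl2 held 14.9 WT peaks per 100 kb and Tenm4 held 11.8, whereas Adgrl3 held 7.64. Of the 705 long genes, 17 were denser than Adgrl2, 80 were denser than Tenm4 and 432 were denser than Adgrl3.

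Most member peaks were intronic. In WT, 330 of 385 peaks had their summit in an intron, 19 in an exon, 17 within 1 kb of a protein-coding start (called promoter peaks here) and 19 in the flanks, of which 11 were downstream and 8 upstream. The largest group was intron 4 of Tenm2, which spans 479 kb and held 42 of the 108 WT peaks of the gene. Intron 2 of Tenm3 (229 kb) held 20 of 66, intron 1 of Tenm4 (184 kb) held 16 of 90, and intron 1 of Adgrl3 (176 kb) held 12 of 63. The single long intron of Flrt2 (85.9 kb) held 14 of its 16 peaks.

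**Figure D1:**
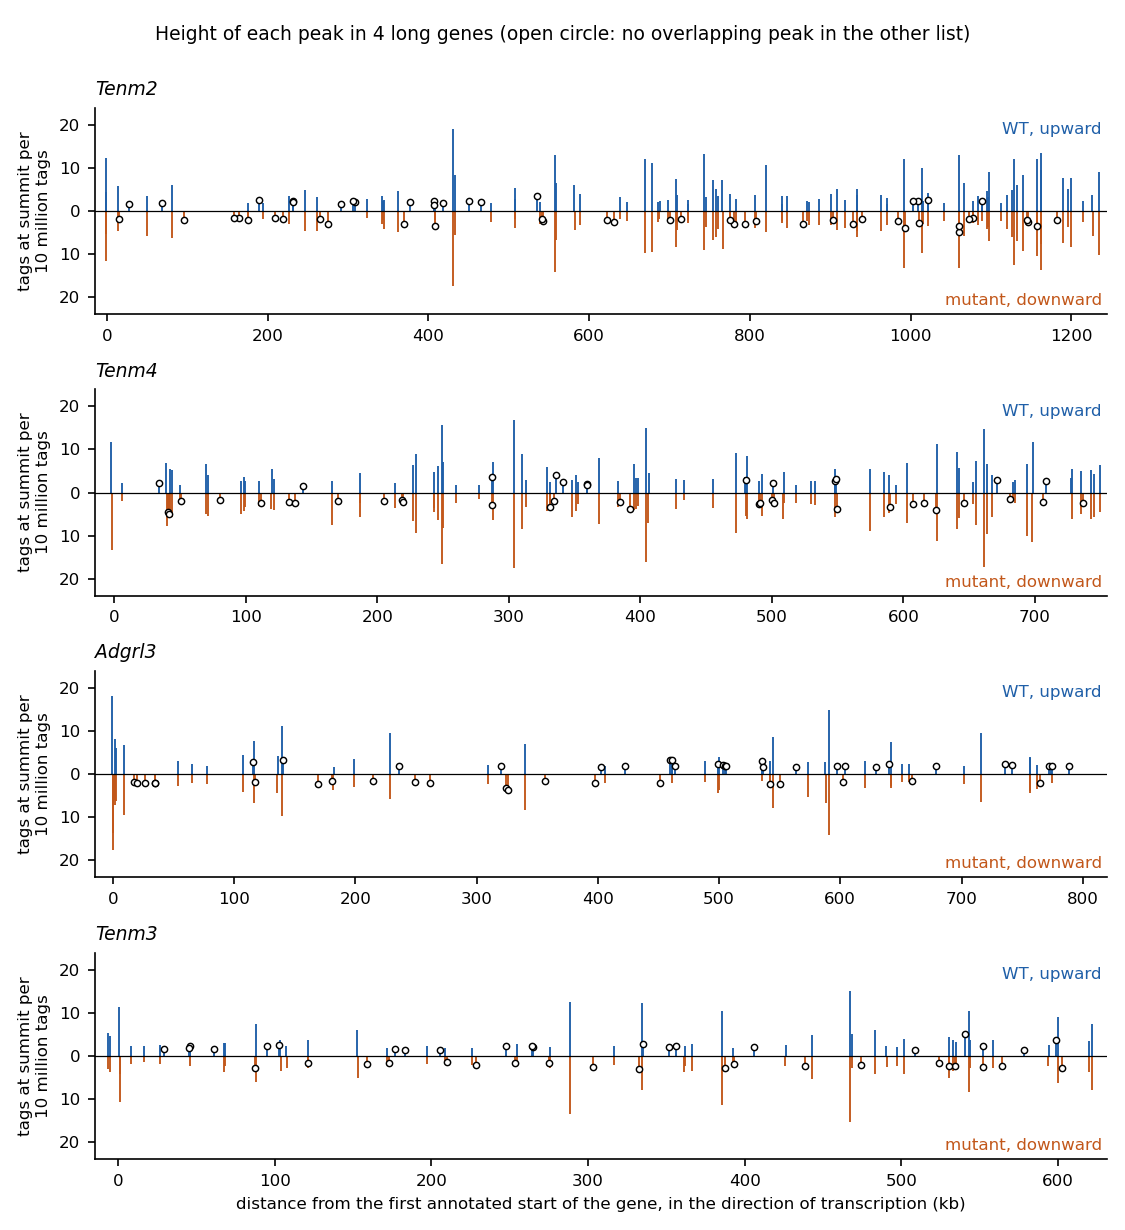
Height of every WT peak (upward) and mutant peak (downward) along 4 long genes, as tags at the summit per 10000000 tags (y axis), by distance in kb from the first annotated start (x axis); open circles mark peaks with no overlapping peak in the other list. The tall peaks stood in both lists at the same places, and the open circles sat on low peaks.

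At the strongest promoter peak of each gene, heights were close in WT and mutant where both lists held a peak. Of 17 WT promoter peaks, 5 had no mutant peak (29.4%), against 22.8% of all WT peaks. These lay in Tenm2, Adgrl2, Adgrl3, Flrt1 and Flrt2, at WT ranks from 1.88 to 38.5. Heights are given as tags at the summit per 10000000 filtered tags, and ratios as log2 of mutant over WT height with the exact counting interval. The Flrt3 promoter, 50 bp before the start at chr2:140671134-140671678, had a height of 19.6 in WT and 20.97 in mutant, a log2 ratio of 0.09 (-0.31 to 0.50). It ranked at 99.3 in WT, 99.6 in mutant and 99.5 in het, the highest rank of any of the 9 promoters in each list. FLRT3 is known to modulate Robo1 signalling in growing axons.

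The promoter peaks of 5 other genes also had ratios near 0. The Tenm2 promoter had heights of 12.3 and 11.8 (log2 -0.07, -0.60 to 0.47), and the internal Tenm3 promoter at chr8:48554910-48556172 had 12.5 and 13.5 (log2 0.11, -0.40 to 0.63). The promoter of Adgrl1, the latrophilin known as a receptor of black widow spider venom, had 13.9 and 13.5 (log2 -0.04, -0.54 to 0.46). Flrt2 had 15.5 and 17.2 (log2 0.16, -0.30 to 0.61), at a peak 2.94 kb after its first annotated start. Adgrl2 had 18.5 and 20.6 (log2 0.16, -0.26 to 0.58), with the summit 989 bp inside the gene. All 5 intervals held 0.

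The promoter peaks of Tenm4, Adgrl3 and Flrt1 were weaker. The strongest Tenm4 promoter peak ranked at 67.3 in WT, with heights of 6.75 and 7.84 (log2 0.22, -0.48 to 0.92), and a taller peak stood 2.23 kb before the first annotated start, with 11.7 and 13.3 (log2 0.19, -0.34 to 0.71). In Adgrl3 the peak 233 bp after a coding start ranked at 46.3 in WT (heights of 8.14 and 7.25, log2 -0.17, -0.85 to 0.51), while a broader peak 430 bp before the first annotated start, at chr5:81019363-81020984, had 18.3 and 17.6 (log2 -0.05, -0.49 to 0.39). Flrt1 had a single weak promoter peak of 13 tags in WT, at rank 21.6, and none in mutant or het. Over the 8 strong promoter peaks of the 9 genes, log2 ratios ran from -0.07 to 0.22.

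Peaks found in WT without an overlapping mutant peak were as frequent at the 9 genes as in the whole list. They made up 95 of 385 member peaks, or 24.7% (Wilson interval 20.6 to 29.2), against a background of 22.8% of all WT peaks. In the other direction, 125 of 423 mutant peaks had no WT peak, or 29.6% (25.4 to 34.1), against 30.7% of all mutant peaks. The strongest unmatched WT peak had a -log10 q of 9.83, and the strongest unmatched mutant peaks had 10.3, in Tenm2, and 10.2, in Flrt3. All 121 WT member peaks with a -log10 q of at least 10, called strong here, had a mutant partner, as did 99.5% of all strong WT peaks.

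The share varied between genes, and so did the strength of their peaks. In Adgrl3, 26 of 63 WT peaks lacked a mutant peak (41.3%, 30.0 to 53.6), and in Tenm3 21 of 66 did (31.8%, 21.9 to 43.8). Tenm2 had 19 of 108 (17.6%, 11.6 to 25.9) and Tenm4 13 of 90 (14.4%, 8.64 to 23.2). The median rank of the WT peaks was 35.3 in Adgrl3 and 42.3 in Tenm3, against 55.6 in Tenm2 and 54.4 in Tenm4. The intervals of Adgrl3 lay above those of Tenm2 and Tenm4. Among the 705 other long genes, 51 had a higher share than Adgrl3, and 148 had a lower share than Tenm4.

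Peaks were then split by strength at a -log10 q of 5. Of the Adgrl3 peaks with a -log10 q under 5, 21 of 33 lacked a mutant peak (63.6%, 46.6 to 77.8), where the background was 50.7%. Of its peaks with a -log10 q of at least 5, 5 of 30 did (16.7%, 7.34 to 33.6), where the background was 5.78%. The Adgrl3 share was above the background in both classes, with an interval that excluded it only among the stronger peaks. Strength still varied within that class: all 13 Adgrl3 peaks with a -log10 q of at least 10 had a partner. Its unmatched peaks reached 8.505 at most. A closer match of strength was not made, and the intervals do not allow for picking Adgrl3 and Tenm4 among the 9 genes. Tenm4 was below the background among the weak peaks, with 8 of 27 (29.6%, 15.9 to 48.5, an interval that also excluded it), and near it among the stronger, with 5 of 63 (7.94%, 3.44 to 17.3). Tenm2 had 17 of 40 and 2 of 68, and Tenm3 had 18 of 31 and 3 of 35. In intron 7 of Adgrl3, picked after its count was seen, 6 of 9 WT peaks had no mutant partner, and the mutant list held 3 peaks there. None of these 9 reached a -log10 q of 10. In the whole list 22.8% of WT peaks of any strength lacked a mutant peak, 50.7% of those under 5 and 5.78% of the rest. A whole-list share at the strength of these 9 was not taken.

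**Figure D2:**
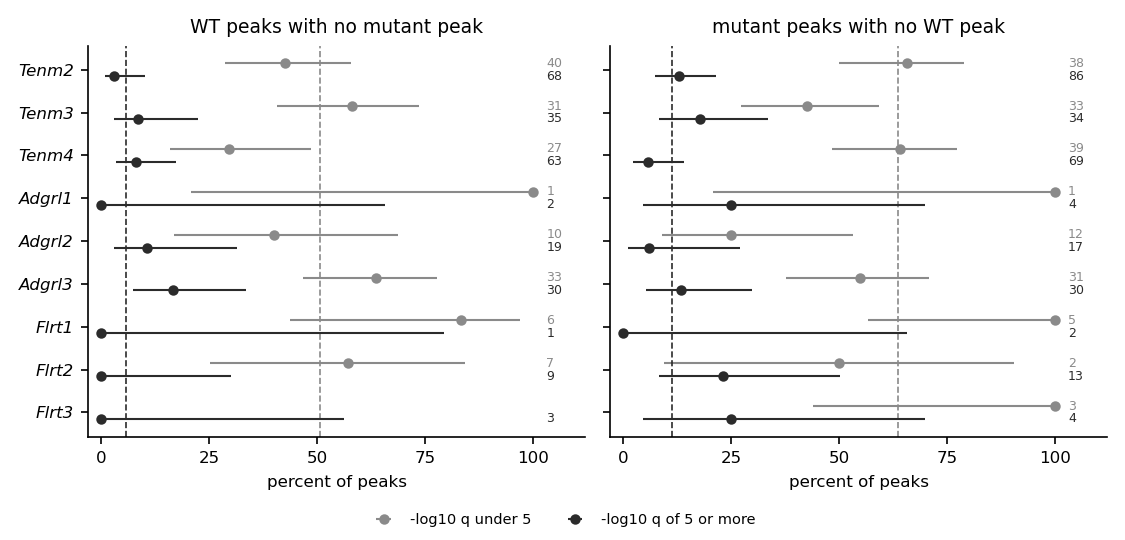
Percent of the WT peaks of each gene with no mutant peak (left) and of its mutant peaks with no WT peak (right), for peaks with -log10 q under 5 (grey) and of 5 or more (black), with Wilson intervals; small numbers give the peaks in each class and dashed lines the share over the whole list. The Adgrl3 points lie right of both lines on the left side (63.6% and 16.7%), and the Tenm4 point for weak peaks lies left of its line (29.6%).

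Among unmatched mutant peaks, Tenm2 held 36 of 124 (29.0%), Tenm4 29 of 108 (26.9%), Adgrl3 21 of 61 (34.4%) and Tenm3 20 of 67 (29.9%), all with intervals that held the 30.7% of the whole list. Adgrl2 was lower, with 4 of 29 (13.8%, 5.50 to 30.6), and its interval ended just below that value. Flrt1 had 5 of 7 mutant peaks unmatched and Flrt3 had 4 of 7, and the strongest of those in Flrt3, at chr2:140653549-140653736, had 19 tags and a -log10 q of 10.2. Among mutant member peaks with a -log10 q under 5, 94 of 164 were unmatched (57.3%, 49.7 to 64.6), against 63.7% of the whole list, and at 5 or more 31 of 259 were (12.0%, 8.56 to 16.5), against 11.2%. The whole mutant list held 14.0% more peaks than the WT list, and the 9 genes together held 9.87% more. Tenm4 went from 90 to 108 peaks, Tenm2 from 108 to 124 (14.8% more) and Adgrl3 from 63 to 61.

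Single-list peaks were also taken by gene. In WT without a mutant or het peak within 300 bp, the strongest of Tenm4 was at chr7:96506953-96507200 with 20 tags, of Tenm3 at chr8:48303105-48303221 with 25 tags, and of Tenm2 at chr11:36701132-36701268 with 18 tags. In Adgrl3 the strongest such peak had 16 tags, in Adgrl2 15, in Flrt2 32 and in Flrt1 13, and Adgrl1 and Flrt3 had none. For the mutant list the counterparts had 16 tags in Tenm2, 13 in Tenm3, 14 in Tenm4, 17 in Adgrl2, 16 in Adgrl3, 11 in Flrt1, 15 in Flrt2 and 19 in Flrt3. The median peak of either list had 16 tags.

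At shared peaks the WT and mutant heights were close. Over 290 WT member peaks with a mutant partner, the median log2 ratio was 0.08, and it was 0.08 over all 118098 shared peaks. The median fell with strength in the same way for both: 0.27 against 0.24 below a -log10 q of 5, 0.05 against 0.08 between 5 and 10, and -0.02 against 0.02 at 10 or more. The value of -0.02 is the ratio that equal tags give after scaling to depth. A ratio exists only where a mutant peak was also called, so the lowest mutant values are missing among weak WT peaks. The comparison of single peaks was therefore kept to strong peaks.

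Strong peaks were chosen by their WT q alone, in the 9 genes and in the whole list. Peaks strong only in mutant were thus left out, which favours falls over rises. Of 121 strong member peaks, 12 were lower in mutant by 0.5 or more on the log2 scale (9.92%, 5.76 to 16.5), against a background of 6.91%. By as much, 4 were higher (3.31%, 1.29 to 8.19), against 3.59%. Other protein-coding genes of at least 200 kb had 8.74% and 4.24%. Counting any fall in scaled height, where equal tags count as lower, 64 of 121 were lower (52.9%, 44.0 to 61.6). That share was 48.2% over all strong shared peaks and 50.9% at the other long genes. A fall of 1 or more was found at 2 of 121 (1.65%, 0.454 to 5.83), against 0.764%. None of the 12 falls was at a promoter, which here means a protein-coding start: 11 were intronic and 1 was upstream of Tenm3. The Adgrl3 falls in introns 2 and 18 lay 299 and 275 bp from the nearest annotated start of any transcript. The counting interval lay wholly below 0 at 4 peaks (3.31% of 121, against 1.08% of all strong peaks) and wholly above 0 at 1 (0.826%, against 0.504%). These peaks were selected for their size among 121, and their intervals do not allow for that.

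**Figure D3:**
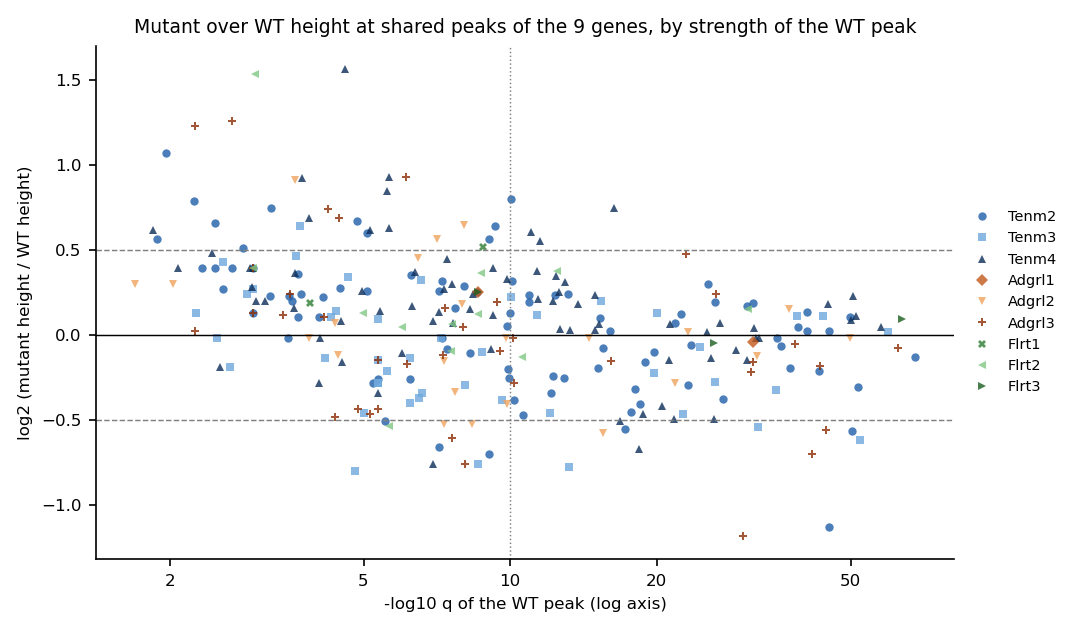
Log2 of mutant over WT height (y axis) against the -log10 q of the WT peak (x axis, log scale) for the 290 shared peaks of the 9 genes, with a symbol for each gene; dashed lines mark ±0.5 and the dotted line the limit for strong peaks, 10. Weak peaks lie mostly above 0, but only those with a called mutant peak are drawn, so low mutant values are missing there. The deepest points on the strong side are an Adgrl3 peak (-1.18) and a Tenm2 peak (-1.13).

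The teneurins, the ligands of the system, held 95 of the strong peaks, of which 8 were lower and 4 were higher by 0.5 or more. These made 8.42% (4.33 to 15.7) and 4.21% (1.65 to 10.3), against 6.91% and 3.59% of all strong shared peaks. In Tenm2 the largest fall was at chr11:36415161-36415785 in intron 4, 820 kb from the first start, whose sequence is given above. Its height was 10.7 in WT (54 tags) and 4.90 in mutant (25 tags), a decrease of 54.3% (log2 -1.13, -1.88 to -0.42). Its rank was 96.1 in WT, 79.6 in mutant and 87.9 in het, and its fold enrichment over the local background was 14.1, 9.36 and 12.9. Ranks and fold enrichments from lists of different length, depth and settings do not order the genotypes, so here and below they place a peak only within its own list. By fold enrichment the log2 ratio of mutant to WT was -0.59.

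The other falls of Tenm2 past 0.5 were also in intron 4: chr11:36492241-36492772 went from 13.3 to 9.01 (log2 -0.56, -1.13 to 0.00) and chr11:36802159-36802756 from 8.33 to 5.68 (log2 -0.55, -1.29 to 0.16). The second lay near the strongest peak of the gene, chr11:36804579-36805146, whose heights of 19.1 and 17.4 differed little (log2 -0.13, -0.56 to 0.30). The largest rise was in intron 1, from 3.37 to 5.88 (log2 0.80, -0.10 to 1.75). Over 43 strong Tenm2 peaks, 23 had fewer tags in mutant, 19 had more and 1 had the same number, with a median log2 ratio of -0.07. By scaled height 55.8% were lower (41.1 to 69.6), against 48.2% of all strong shared peaks.

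Tenm3, the teneurin known for matching axons and targets in hippocampal and visual circuits, had 16 strong peaks, of which 9 were lower and 7 higher, with a median of -0.15. The lower share was 56.25% (33.2 to 76.9), against 48.2% of all strong shared peaks. The median was -0.05 by fold enrichment. Its strongest distal peak, at chr8:48376709-48377275 in intron 4, was level at 15.1 and 15.3 (log2 0.02, -0.46 to 0.49). In intron 2, chr8:48509133-48509640 went from 12.3 to 8.03 (log2 -0.61, -1.22 to -0.02), and its ranks were 97.7 in WT, 90.1 in mutant and 86.3 in het. The largest fall was upstream, 6.42 kb before the first start, from 5.36 to 3.14 (log2 -0.77, -1.76 to 0.17), and chr8:48243933-48244208 in intron 25 went from 9.13 to 6.27 (log2 -0.54, -1.24 to 0.14). In Tenm3 the largest rise was 0.22 among strong peaks and 0.64 over all shared peaks.

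Tenm4, a teneurin whose loss gives mice poor myelination and tremor, had more strong peaks higher than lower. Of its 36 strong peaks, 24 had more tags in mutant, 10 had fewer and 2 had the same number, with a median log2 ratio of 0.06. By scaled height, where equal tags count as lower, 33.3% were lower (20.2 to 49.7), against 48.2% of all strong shared peaks. Its largest rise, in intron 13 at chr7:96746053-96746323, went from a height of 5.36 (27 tags) to 9.01 (46 tags), a log2 ratio of 0.75 (0.03 to 1.49), and it ranked at 76.7 in the WT list, 93.6 in the mutant list and 74.3 in the het list. Further rises were in intron 25, from 6.55 to 9.99 (log2 0.61, -0.05 to 1.29), and in intron 19, from 6.55 to 9.60 (log2 0.55, -0.11 to 1.23). The falls were chr7:96565923-96566113 in intron 6, from 6.55 to 4.12 (log2 -0.67, -1.53 to 0.16), and a peak in intron 1, from 5.56 to 3.92 (log2 -0.50, -1.41 to 0.38). The strongest distal peak, in intron 3, stayed at 16.9 and 17.4 (log2 0.05, -0.40 to 0.49).

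The latrophilins, the receptors, held 21 strong peaks, of which 14 had fewer tags in mutant, 4 had more and 3 had the same number. By 0.5 or more, 4 were lower and 0 of 21 higher. Adgrl3 had 10 of 13 with fewer tags and a median log2 ratio of -0.16. By scaled height 84.6% of its strong peaks were lower (57.8 to 95.7). Adgrl2 had 3 with fewer, 2 with more and 2 with equal tags, and its median of -0.02 is the ratio that equal tags give after scaling to depth. By fold enrichment the median of Adgrl3 was -0.08. Peaks of a gene share its locus and are not replicates, and the intervals do not allow for picking among families and genes.

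In Adgrl3, a latrophilin linked by genetics to attention deficit, the largest fall was at chr5:81661716-81662483 in intron 11, 1498 bp after an internal coding start. Its height was 7.54 in WT (38 tags) and 3.33 in mutant (17 tags), a decrease of 55.8% (log2 -1.18, -2.10 to -0.32), and -0.83 by fold enrichment. The WT peak spanned 768 bp, and the mutant list held a pair of separate peaks in its place, of 126 and 237 bp, the higher of which was used. Ranks were 89.7 in WT, 63.4 in mutant and 54.1 in het, and fold enrichments were 11.9, 6.69 and 5.97. The counting interval covers none of the effect of this split.

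Further falls in Adgrl3 were chr5:81248646-81249217 in intron 2, from 9.52 to 5.88 (log2 -0.70, -1.41 to -0.01), and chr5:81735987-81736327 in intron 18, from 9.52 to 6.47 (log2 -0.56, -1.24 to 0.11). The het ranks at these were 85.7 and 90.4, against 94.98 and 95.9 in WT and 85.7 and 89.1 in mutant. The strongest peak of the gene, in intron 8, was level, with heights of 14.9 and 14.1 (log2 -0.08, -0.56 to 0.41). The largest rise was in intron 1, from 6.75 to 9.41 (log2 0.48, -0.18 to 1.16).

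Adgrl2 had its largest fall in intron 2, chr3:148922595-148923101, from 4.96 to 3.33 (log2 -0.57, -1.55 to 0.37), and its strongest distal peak in the same intron was level at 13.5 and 13.3 (log2 -0.02, -0.52 to 0.49). Adgrl1 had 3 WT peaks, of which the promoter was the only strong peak. Its intronic peak at chr8:83921665-83921886 had 3.77 and 4.51 (log2 0.26, -0.68 to 1.21). The Adgrl1 region also overlaps the gene Gm10644, and peaks there cannot be ascribed to either gene.

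The Flrt genes held 5 strong peaks, of which 2 were lower and 3 higher, none by 0.5. In Flrt3 the intronic peak 2.99 kb from the start had heights of 11.5 and 11.2 (log2 -0.04, -0.60 to 0.51). In Flrt2 the strongest distal peak, 76.3 kb into the gene, had 4.37 and 5.68 (log2 0.38, -0.47 to 1.25). Flrt1 had no strong peak, and its strongest, in the downstream flank, had 3.97 and 5.68 (log2 0.52, -0.35 to 1.42). The region of Flrt1 also overlaps Macrod1 and that of Flrt3 overlaps Macrod2, so peaks there cannot be ascribed to a single gene.

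**Figure D4:**
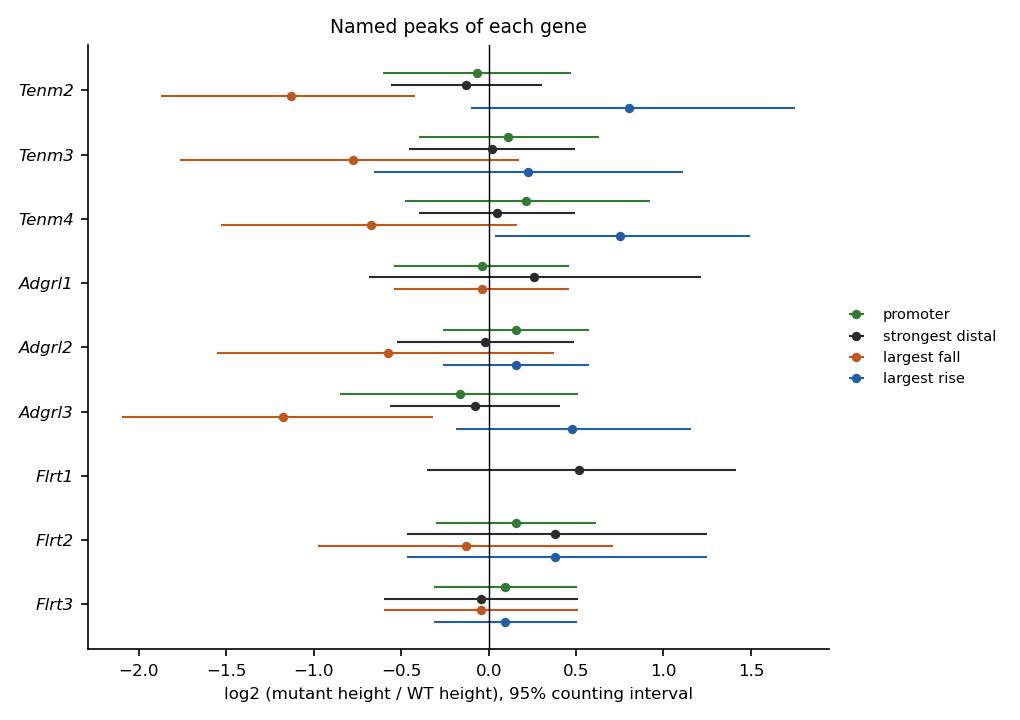
Log2 of mutant over WT height with the exact 95% counting interval (x axis) for up to 4 named peaks of each gene (y axis): the promoter peak with the highest q, the strongest peak over 1 kb from any start, and, among strong shared peaks, the largest fall and rise. Promoters lie between -0.17 and 0.22 and strongest peaks between -0.13 and 0.52 (Flrt1), and of the falls and rises only those of Tenm2 (-1.13), Adgrl3 (-1.18) and Tenm4 (0.75) have intervals that exclude 0.

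The het list overlapped the member peaks as it did the rest. A het peak overlapped 241 of 385 WT member peaks (62.6%, 57.7 to 67.3), against 63.1% of all WT peaks, and 254 of 423 mutant member peaks (60.0%, 55.3 to 64.6), against 58.7%. By gene the share of WT peaks with a het peak was 73.3% in Tenm4 and 70.4% in Tenm2, and 52.4% in Adgrl3 and 48.5% in Tenm3, the pair with the lower median ranks. Of the 95 WT member peaks with no mutant peak, 10 had a het peak (10.5%, 5.82 to 18.3), where 13.2% of all such WT peaks did. Of the 125 mutant peaks with no WT peak, 15 did (12.0%, 7.41 to 18.9), where 15.2% did in the whole list.

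The 6 strings were counted in WT windows. In 300 bp windows around the summit, CAGATG, an E-box bound by proneural factors such as Atoh1 and Neurod1, was found in 60 of 121 strong member windows (49.6%, 40.8 to 58.4) and in 35.7% of all strong WT windows. CAGCTG was found in 47 (38.8%, 30.6 to 47.7), against 30.4%, and the NFI string in 44 (36.4%, 28.3 to 45.2), against 28.2%. The GC box, a promoter element, was found in 11 (9.09%, 5.15 to 15.5), against 23.1%. With peaks within 1 kb of any annotated start left out, a comparison added after these values were seen, the member share of CAGATG was 51.0% (41.5 to 60.4), against 43.4%, and that of the GC box was 4.81% (2.07 to 10.8), against 8.78%. In that comparison the whole-list share lay within the member interval for all 6 strings.

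AP-1 sites were in 9.09% of strong member windows (5.15 to 15.5), against 8.04%, and the Zic-like string in 14.9% (9.62 to 22.3), against 16.5%. Over all 385 WT member windows, CAGATG was in 38.2% (33.5 to 43.1), against 34.8% of the whole list.

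**Figure D5:**
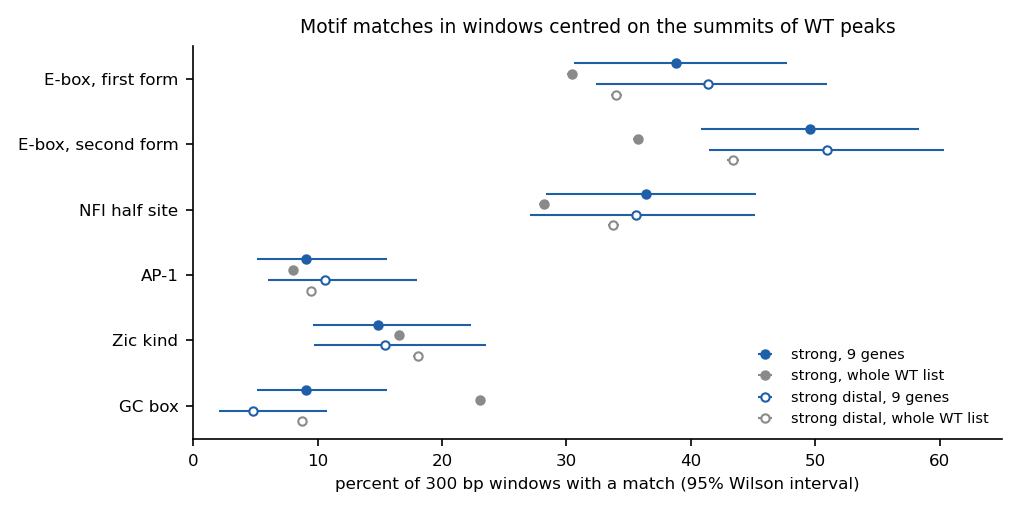
Percent of 300 bp windows with a match (x axis, with Wilson intervals) for the 6 strings (y axis; the first E-box form is CAGCTG, the second CAGATG, and the NFI row is TTGGCA) in strong WT peaks of the 9 genes (blue) and of the whole list (grey), for all such peaks (filled) and those over 1 kb from any start (open). The second E-box is at 49.6% against 35.7% for filled points and at 51.0% against 43.4% for open points.

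Relatives and partners of these genes were counted in the same way. At 12 of them (Tenm1, Unc5a to Unc5d, Cntn6, Fgfr1, Robo1, Shank1 to Shank3 and Adgrl4), 88 of 322 WT peaks lacked a mutant peak (27.3%, 22.8 to 32.4), and 8 genes were above the 22.8% of the whole list and 4 below. Of their 97 strong shared peaks, 9 were lower by 0.5 or more (9.28%, 4.96 to 16.7) and 3 were higher (3.09%, 1.06 to 8.70). At the 10 genes of netrins and of the Unc5 and Dcc receptors, which steer axons, 43 of 190 WT peaks lacked a mutant peak (22.6%, 17.3 to 29.1). Of 66 strong shared peaks there, 8 were lower by 0.5 or more (12.1%, 6.27 to 22.1) and 1 was higher (1.52%, 0.268 to 8.10). For both lists of genes, the intervals of falls and of rises held the 6.91% and 3.59% of all strong shared peaks. All these intervals overlapped those of the 9 genes, and both lists hold the Unc5 genes.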

How the data were processed

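Peaks were taken from 3 lists, for WT (3 libraries), mutant (3) and het (2) GNPs. By the headers, every list had been called by the authors from pooled libraries, using MACS2 2.1.0.20150731 at a q cutoff of 0.05 and without a control. Reads had been trimmed with Trim Galore 0.4.1 and duplicates removed with Picard 1.139. WT and mutant alignments came from STAR by their header paths, with version 2.5.0b in the submitters' processing notes, while the study's methods name Bowtie 1.0.0 with the extension of 200 bp seen in the het header. The pileup signal (tags at the summit, not scaled), the fold enrichment over local background (a ratio) and the -log10 q of each peak were used as the authors deposited them. Heights were set per 10000000 filtered tags. Differences in tag size (107, 76 and 107 bp), extension and aligner move with genotype, and their part in the results was not tested.

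Overlap of at least 1 bp made peaks shared, and the highest overlapping mutant peak was the partner. Promoter peaks had their summit within 1 kb of a protein-coding start. Strong peaks had a -log10 q of at least 10 in WT, whatever their q in mutant. Shares carry Wilson intervals and height ratios exact binomial intervals, at 95%. All 9 genes were named, each with its best promoter peak, strongest distal peak, strongest peak of a single list, and largest fall and rise among strong peaks; all other strong peaks past 0.5, the tall peaks near the first starts of Adgrl3 and Tenm4 and the intron counts were chosen after their values were seen. Members and lists were chosen with earlier results of these data known. Some partner genes are not reported here. Sequence came from RefSeq GRCm38.p6, with 8 of 9 genes in the promoter table. Windows off the 21 main chromosomes or with unread bases were left out (20 in WT). Code used Python 3.11.15, pandas 2.3.3, scipy 1.17.1 and matplotlib 3.10.9, and its overlaps equalled those of bedtools 2.31.1. Overlaps and heights were also tested on simulated data.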

Additional observations from a re-analysis of the deposited data

How the results depend on the processing

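Of 46 alternative values of 26 results, 35 stayed within the limits set and 11 moved. With peaks limited to a -log10 q of 5 or more, the lists held 230 WT and 259 mutant member peaks. At that limit 7.39% of WT member peaks lacked a mutant peak, against 5.78% in the whole list. Of mutant member peaks, 12.0% lacked a WT peak, against 11.2%, and 83.0% of WT member peaks had a het peak. The median height ratio of shared member peaks changed sign, from 0.08 to -0.018 on the log2 scale. This was because the weak peaks left out had the higher ratios. With a reciprocal overlap of 50%, the 3 member shares, in the same order, were 41.6%, 46.8% and 49.1%. With partners allowed within 300 bp, 19.7% of WT peaks lacked a mutant peak. Among strong distal windows, an alternative chosen after seeing the data, the GC box was in 4.81%. No paired analysis was possible because peaks of each genotype came from pooled libraries, and leaving out replicates could not be run for the same reason. The number of tags at a summit limits each single ratio, and the spread between animals is unknown.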
